A study of Physcomitrium patens with 8 samples.

Results

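The comparison described here sets the atg5 line of the moss Physcomitrium patens against wild type (WT) in well-watered colonies, the state that the labels call Hydration. It rests on 2 of the 8 arrays of the series, and on each of them both genotypes were hybridised to the same array in different dyes. WT was labelled with Cy3 and atg5 with Cy5 in replicate 1, and the dyes were exchanged in replicate 2. The atg5 line is a knockout of autophagy related gene 5, described in the labels as deficient in autophagy. Colonies of both genotypes were protonemata (the filamentous stage of the moss). They grew for 7 days at 25 °C in continuous light on agar medium (0.8% agar) that supplied 5 mM ammonium tartrate and 0.5% glucose. The other 6 arrays make the same comparison after 24 h on 50 µM abscisic acid (ABA), after 24 h of drying over silica gel (Dehydration), and after drying followed by 24 h back on fresh medium (Rehydration). They serve here only to show where the well-watered state differs. A single knockout line is named, so an effect of losing ATG5 and any other difference between this line and WT cannot be told apart.

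Autophagy encloses cytoplasm in double-membraned vesicles, the autophagosomes, and delivers it to the vacuole for breakdown and re-use. ATG5 belongs to the conjugation machinery that attaches ATG8 to the growing autophagosome membrane, and plants and mosses without it form no functional autophagosomes. ABA is the plant hormone of water deficit, and protonemata exposed to it switch on transcripts for desiccation tolerance. The labels describe the medium as nutrient-sufficient, so the comparison asks which transcripts differ between the genotypes without starvation or water stress.

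The array carries 38181 different gene probes, each printed once except for 15 probes printed 10 times. Its identifiers read as scaffold, locus number and transcript model, and no file pairs them with a gene name. None of the 38166 identifiers (0 matches) was found in the reference of 27567 moss genes. Genes are therefore given by identifier with no role attached, and neither the transcript of the knocked-out gene nor marker genes of protonemata could be looked up to check the labels. On the Hydration arrays 48.4% (replicate 1) and 52.1% (replicate 2) of gene spots were well above background in WT, against 44.7% and 39.4% in atg5. No gene spot was saturated (0 on either array). The log2 ratio varied among the 10 spots of a repeated probe with a median SD of 0.115 and 0.102. On the Rehydration arrays the share well above background was 19.3 to 30.6%, the lowest of the series.

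In well-watered colonies 6261 of 19664 tested probes, from 5061 of 15446 loci, differed between atg5 and WT (limma, Benjamini-Hochberg adjusted p under 0.05, 31.8% called). Of these, 3045 were higher in atg5 (15.5% of the tested probes) and 3216 were lower (16.4%). Most differences were small. The median size among the called probes was 0.49 on the log2 scale, or 1.40-fold, with a median SE of 0.101, and 4061 of them (64.9%) differed by less than 1.5-fold. At least 2-fold higher were 401 probes of 316 loci (2.04%), and at least 2-fold lower were 221 probes of 177 loci (1.12%). The excess of rises grew with size, to 55 against 19 probes at 4-fold and 13 against 1 at 8-fold. The split of the 2-fold probes depended on the processing, since 728 were higher and 899 lower with Agilent's processed signals. Without Hydration replicate 1 the count of all called probes was 2846, and without replicate 2 it was 3764. With processed signals it was 2266. Median centring, used instead of loess, left limma with 0 calls, although 2723 probes had an unadjusted p under 0.05.

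**Figure D1:**
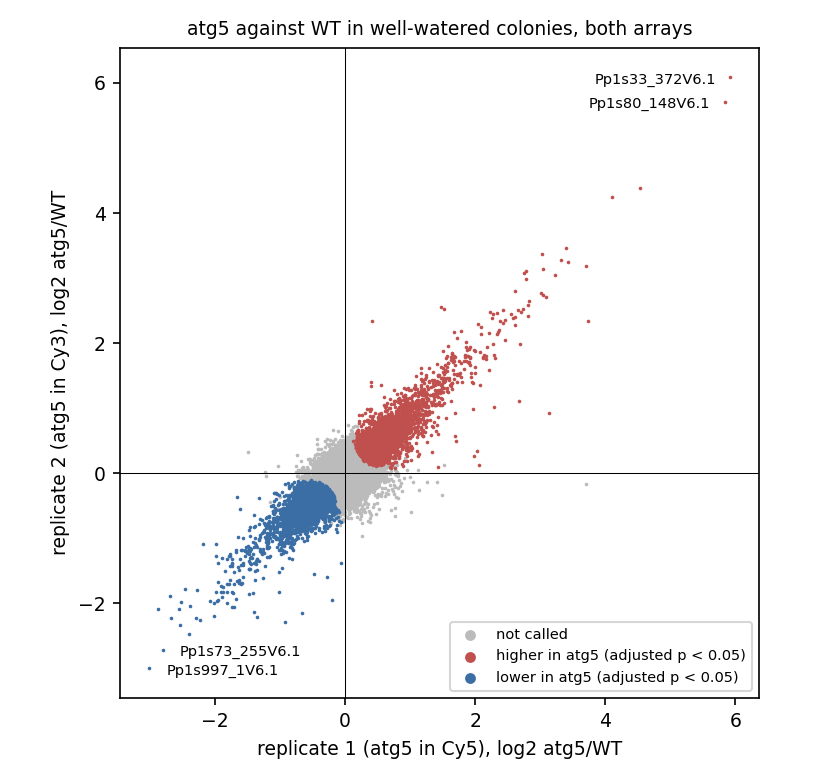
Log2 ratio of atg5 over WT on Hydration replicate 1 (x axis) and replicate 2 (y axis), 1 point per probe measured on both arrays, coloured by the call of the limma fit. The points lie along the diagonal, with Pp1s33_372V6.1 and Pp1s80_148V6.1 furthest up and Pp1s997_1V6.1 and Pp1s73_255V6.1 furthest down by the fitted difference among these probes.

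The 2 arrays, with opposite dyes, can be compared for the probes changed at least 2-fold. These were chosen by their difference over the same 2 arrays. Agreement of the arrays and separation of the genotypes are thus in part fixed by that choice. Among the 392 probes at least 2-fold higher with both spots measured, 311 reached 2-fold on each array, and the median gap between the arrays was 0.17 on the log2 scale. Among the 215 probes at least 2-fold lower, 149 did so, with a median gap of 0.21. Over all tested probes the median gap was 0.15. In normalised channel levels, both atg5 values lay above both WT values for 381 of the 392, and below them for 209 of the 215. Such separation was also common over all probes, at 26% above and 33.2% below of the 19516 probes measured on both arrays.

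All ratios above are relative to gene spots of similar brightness, because loess sets the middle of the ratios to 0 at each brightness. Before this step bright gene spots were dimmer in atg5 on both Hydration arrays. In the brightest 20% of the gene spots the median unnormalised log2 ratio of atg5 over WT was -0.47 in replicate 1 and -1.86 in replicate 2. The same quantity was 0.65 and -1.45 on ABA, 0.73 and -1.35 in Dehydration, and 0.94 and -0.11 in Rehydration. Of the 4 treatments, Hydration and no other had it below 0 in both dye orientations. The spike-in controls, RNAs of known identity that are added to each sample, went the other way. Averaged over both dye orientations, the 5 bright spike-in probes had log2 ratios of 0.45 to 0.82, while gene spots of the same brightness had -1.20 to -0.72. The gap of gene spots to spike-ins was -1.90 to -1.21 (median -1.545) in Hydration, against medians of -0.45 on ABA, -0.43 in Dehydration and 0.74 in Rehydration. If the ratios were set by the spike-ins instead, 132 of the 3045 probes called higher would stay above 0. Less mRNA per amount of total RNA in atg5 and unequal amounts of RNA or spike-in per labelling cannot be told apart here. Higher and lower below mean higher or lower than the typical transcript of similar brightness.

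**Figure D2:**
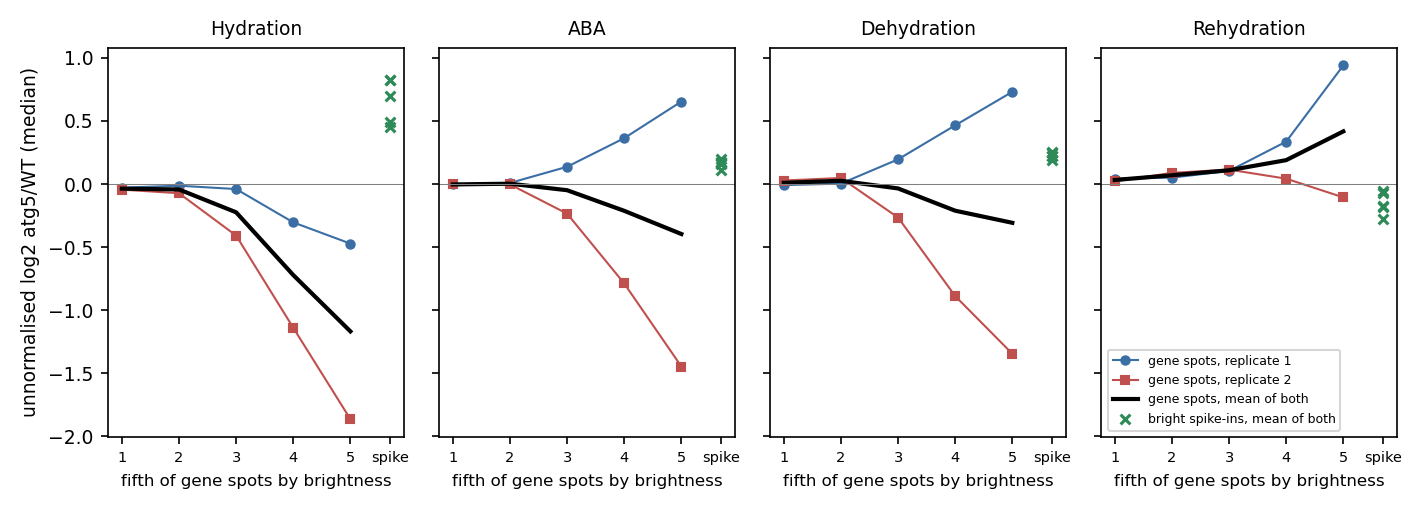
Median log2 ratio of atg5 over WT before normalisation (y axis) in groups of 20% of the gene spots ordered by brightness (x axis, 1 dimmest) for each replicate and their mean, with the bright spike-in probes as crosses. In Hydration the brightest group lies below 0 on both arrays, at -0.47 and -1.86, and the spike-ins lie above 0.

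The largest rises were above 50-fold. For Pp1s33_372V6.1 the normalised log2 levels were 6.76 and 6.49 in WT and 12.68 and 12.58 in atg5, replicate 1 first. Every atg5 value exceeded every WT value by more than 5 log2 units. The ratios of 5.92 and 6.09 gave a 64.2-fold rise (log2 difference 6.01 ± 0.252 SE, n = 2 arrays, limma adjusted p = 2.7e-07). Pp1s80_148V6.1 had levels of 10.90 and 11.49 in WT and 16.74 and 17.20 in atg5. Both groups stood clear of each other. Its 54.8-fold rise had array ratios of 5.84 and 5.71 (5.78 ± 0.161, adjusted p = 1.18e-07). Both probes were higher in atg5 in every treatment, by the least after rehydration. The log2 differences of Pp1s33_372V6.1 were 5.85 on ABA, 5.42 in Dehydration and 2.18 in Rehydration. Those of Pp1s80_148V6.1 were 5.10, 5.05 (1 array) and 2.49 in the same order. The rehydrated channels were uneven between replicates, with WT levels of Pp1s80_148V6.1 at 9.61 and 13.78.

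The largest falls among probes with both spots used were smaller in size. Pp1s997_1V6.1 had levels of 13.55 and 13.32 in WT and 10.54 and 10.32 in atg5. The genotypes did not overlap, and the ratios of -3.008 and -2.9998 gave an 8.02-fold fall (log2 difference -3.004 ± 0.173, adjusted p = 1.53e-06). Its differences were -0.70 on ABA, -0.83 in Dehydration and -0.64 in Rehydration, all called lower. On ABA the WT level itself was lower, at 11.08 and 11.02, and close to the atg5 levels of 10.48 and 10.22. Pp1s73_255V6.1 had levels of 9.62 and 9.84 in WT and 6.81 and 7.12 in atg5. Its ratios of -2.81 and -2.72 gave a 6.79-fold fall (-2.76 ± 0.096, adjusted p = 5.51e-07). On ABA it was far brighter in both genotypes, at 13.33 and 13.61 in WT and 12.54 and 12.68 in atg5. In dried colonies the 1 array with a used spot gave 13.38 in WT and 13.14 in atg5. This transcript was well above background in both genotypes in well-watered colonies, lower in atg5 there, and higher in both genotypes on ABA.

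Some probes were well above background in a single genotype. Of the 19664 tested probes, 1662 were so in WT on both Hydration arrays and in atg5 on neither, and 399 of these were called lower. The opposite pattern, in atg5 on both arrays and in WT on neither, was seen for 59 probes, of which 54 were called higher. Such probes could pass the filter on dim probes through their bright genotype alone, which favours a call. This imbalance runs with the dimmer atg5 channels described above, and its part in the counts was not tested. For such probes the dim genotype has only an upper limit, so the fold is a lower bound. It compares the mean of the bright genotype with, on each array, the dim probe's own signal or the lowest signal well above background, whichever is higher. Pp1s71_107V6.1, not well above background in WT, was at least 5.32-fold higher in atg5 (levels 5.69 and 5.36 in WT and 8.43 and 7.89 in atg5, adjusted p = 5.45e-07). Pp1s172_73V6.1 was at least 2.68-fold higher (5.94 and 5.83 in WT, 7.53 and 7.09 in atg5, adjusted p = 0.000286), a direction that turned with spike-in scaling, to a log2 difference of -0.12. In neither case did the genotypes overlap. The filter on dim probes kept both through atg5 alone, the genotype in which they are high, so their p-values are no separate support. In the other direction, Pp1s178_136V6.1 was at least 4.34-fold lower in atg5 (8.65 and 8.45 in WT, 6.19 and 6.67 in atg5, adjusted p = 7.24e-06). Pp1s122_138V6.1 was at least 2.90-fold lower (7.77 and 8.00 in WT, 6.04 and 6.61 in atg5, adjusted p = 3.08e-06). On ABA both were well above background in atg5 too. The ABA levels of Pp1s178_136V6.1 were 10.29 and 10.36 in WT and 9.97 and 10.06 in atg5, above either genotype in water. Those of Pp1s122_138V6.1 were 7.09 and 7.23 in WT and 7.25 and 7.40 in atg5, so there the WT level was lower than in well-watered colonies and the atg5 level higher.

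Among the differences of at least 2-fold, Pp1s62_136V6.1 and Pp1s80_148V6.1 were the brightest rises and Pp1s350_5V6.1 and Pp1s156_153V6.1 the brightest falls, with 1 probe taken per locus. Pp1s62_136V6.1 had levels of 13.71 and 13.75 in WT and 14.76 and 14.82 in atg5 (log2 difference 1.06 ± 0.091, 2.09-fold, adjusted p = 3.52e-05). This rise turned to -0.095 with median centring in place of loess and to -0.48 with spike-in scaling. Pp1s350_5V6.1 had levels of 15.56 and 15.87 in WT and 14.20 and 13.66 in atg5. It fell 3.45-fold (-1.79 ± 0.24, adjusted p = 0.000349), with unequal ratios of -1.36 and -2.21 on the 2 arrays. Pp1s156_153V6.1 fell 2.09-fold (-1.06 ± 0.183, adjusted p = 0.00153), from 14.62 and 14.66 in WT to 13.71 and 13.44 in atg5. For each of these 4 probes the genotypes were separated on both arrays.

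**Figure D3:**
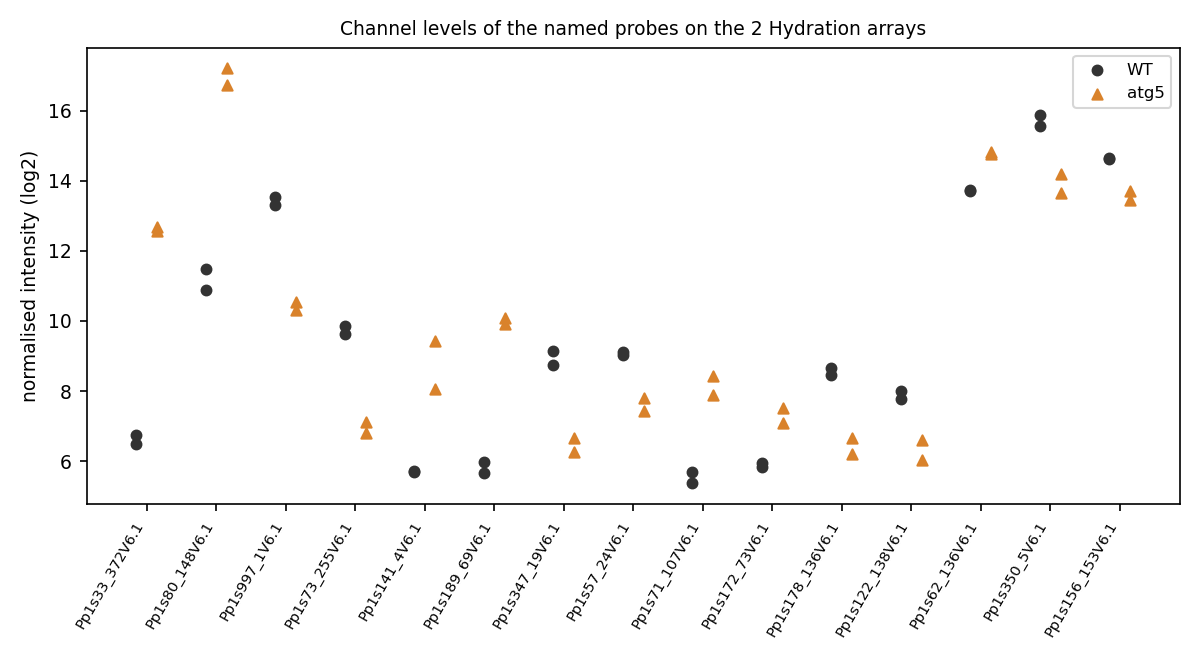
Normalised log2 intensity (y axis) of each named probe (x axis) on the 2 Hydration arrays, with circles for the 2 WT channels and triangles for the 2 atg5 channels. No probe shows an overlap of the genotypes, and the widest separation is that of Pp1s33_372V6.1, at 6.76 and 6.49 against 12.68 and 12.58.

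Most rises of well-watered atg5 were called on ABA and after drying too, whereas fewer of the falls were. The 401 probes at least 2-fold higher in Hydration had a median log2 difference of 1.32 there, 0.79 on ABA and 0.94 in Dehydration. On ABA 321 of them were called higher and 1 lower (8.57% and 4.88% of all tested probes), and in Dehydration 331 were called higher and 6 lower (12.3% and 6.59%). In Rehydration their median was 0.26, with 143 called higher and 22 lower (7.02% and 7.38%). The 221 probes at least 2-fold lower had a median of -1.32 in Hydration but -0.16 on ABA, -0.13 in Dehydration and -0.28 in Rehydration. On ABA 47 were called lower and 21 higher, in Dehydration 40 and 20, and in Rehydration 76 and 20. Called in the same direction in all 3 other treatments were 132 of the 401 rises (2.04% of all tested probes were called higher in all 3) and 10 of the 221 falls (0.687% were called lower in all 3). Called in none of them in that direction were 42 of the 401 (82.4% of all tested probes) and 105 of the 221 (85.7%). The difference between rises and falls was not tested. The probes were chosen by their size in Hydration, so a smaller median elsewhere is in part fixed by that choice, for rises and falls alike.

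**Figure D4:**
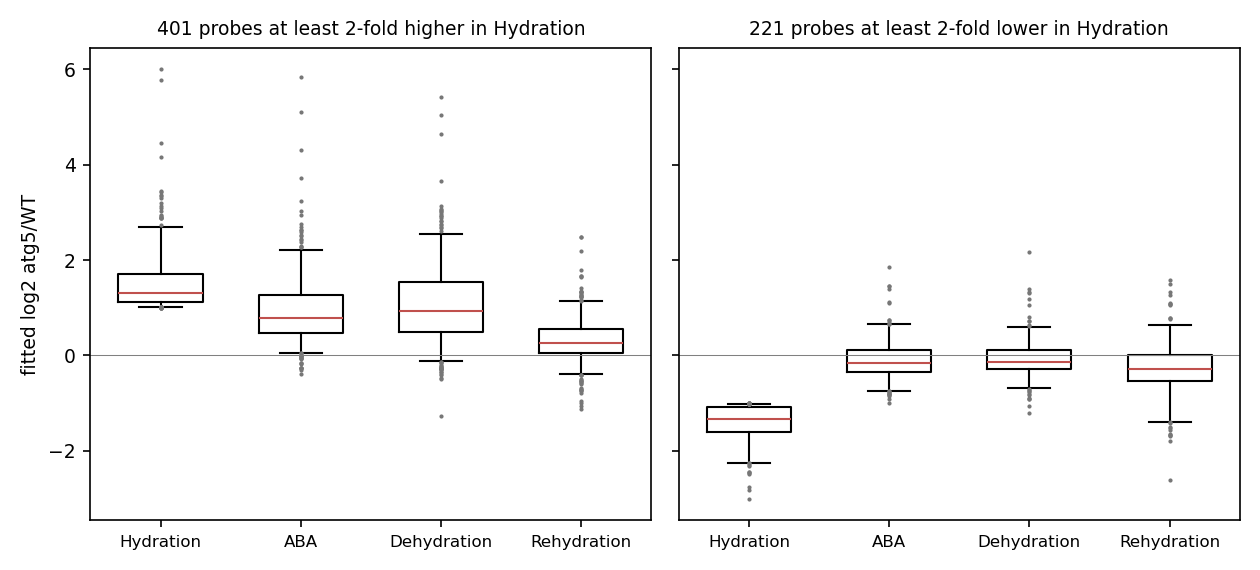
Fitted log2 difference of atg5 from WT (y axis) in each treatment (x axis) for the 401 probes at least 2-fold higher (left) and the 221 at least 2-fold lower (right) in Hydration. Boxes span the middle 50% of the probes with the median as a line, and whiskers the middle 90%. The left medians are 1.32, 0.79, 0.94 and 0.26, and the right medians -1.32, -0.16, -0.13 and -0.28.

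The difference itself was tested as the Hydration effect minus the mean effect of the other 3 treatments. It passed at 3809 probes (19.4% of those tested), 1731 above 0 (8.8%) and 2078 below 0 (10.6%). Blocking on replicate number, it passed at 6267 probes, 2842 above and 3425 below, and with processed signals at 780, 278 above and 502 below. Among the 221 falls 210 passed below 0 and 0 above, and among the 401 rises 288 passed above 0 and 3 below. The contrast contains the Hydration effect by which these probes were chosen, so an excess in that direction is largely fixed by the choice. Without Hydration replicate 1 the count over all probes was 1391, and without replicate 2 it was 2067. Some probes were called in opposite directions in Hydration and elsewhere with a called difference between the effects. Of the 19664 tested probes, 99 were lower in Hydration and higher on ABA, 125 higher in Dehydration and 265 higher in Rehydration. The reverse held for 40, 132 and 237. The counts for Rehydration rest on the arrays with the lowest share of spots well above background, 19.3 to 30.6%.

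Among probes above 0 in this contrast the largest differences belonged to transcripts that were dim in WT. Pp1s141_4V6.1 had Hydration levels of 5.703 and 5.725 in WT, where it was well above background on 1 of the 2 arrays, and 9.44 and 8.06 in atg5. The 2 arrays thus separated the genotypes but differed in size, with ratios of 3.73 and 2.34 (log2 difference 3.04 ± 0.247). Elsewhere its differences were 0.48 on ABA, 0.40 in Dehydration and 0.22 in Rehydration, none of them called, and the contrast was 2.67 ± 0.285 (adjusted p = 0.000213). In those 3 treatments WT was well above background on 0 arrays, and atg5 on 1, 2 and 1 in the same order. The differences there are limits, and the contrast may be overstated or understated. The filter on dim probes kept this probe through atg5 alone, the genotype in which it is high, so its p-value is no separate support. Pp1s189_69V6.1 rose from 5.98 and 5.67 in WT to 10.07 and 9.92 in atg5, an 18.0-fold difference (4.17 ± 0.093, adjusted p = 7.43e-09). It was called higher in the other treatments too, by 1.19, 2.19 and 1.80 in the order ABA, Dehydration and Rehydration, and the contrast was 2.45 ± 0.107 (adjusted p = 7.37e-06). Its WT channel was well above background on 0 arrays on ABA and in Dehydration and on 1 in Rehydration. Those differences are lower bounds, so this contrast may be overstated. With processed signals neither contrast passed. That of Pp1s141_4V6.1 kept its size with a larger error (2.96 ± 1.04, adjusted p = 0.179), while that of Pp1s189_69V6.1 was smaller (1.08 ± 0.491, adjusted p = 0.278).

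The largest contrasts below 0 belonged to transcripts that were lower in atg5 in well-watered colonies and not called lower there on ABA or after drying. Pp1s347_19V6.1 had levels of 9.14 and 8.76 in well-watered WT and 6.26 and 6.67 in well-watered atg5 (log2 difference -2.48 ± 0.163). On ABA it stood at 12.22 and 11.80 in WT and 12.43 and 12.24 in atg5, and in Dehydration at 12.11 and 11.80 in WT and 12.69 and 12.42 in atg5. The genotypes were thus separated in water and had nearly the same level on ABA (difference 0.33, not called), with atg5 higher by 0.60 when dried (adjusted p = 0.0286). In Rehydration the difference was -0.20, not called. The contrast of Pp1s347_19V6.1 was -2.72 ± 0.189 (adjusted p = 2.33e-05). Well-watered atg5 was well above background on 1 of the 2 arrays. The fall there is a lower bound, so this contrast may be understated. Pp1s57_24V6.1 reversed its direction. It had levels of 9.105 and 9.03 in well-watered WT and 7.42 and 7.81 in well-watered atg5 (-1.45 ± 0.123). WT changed little on ABA (9.15 and 9.04) and in Dehydration (8.996 and 8.77), while atg5 reached 10.92 and 10.99 on ABA and 11.03 and 11.07 in Dehydration. The differences of 1.86 and 2.16 there were called higher, and the contrast was -2.68 ± 0.142 (adjusted p = 1.15e-05).

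The behaviour of Pp1s73_255V6.1, Pp1s178_136V6.1 and Pp1s347_19V6.1, a higher WT level on ABA, was seen in a part of the falls. For the 206 of the 221 probes with all spots measured, the level in WT was at least 2-fold higher on ABA than in Hydration for 85 (41.3%), against 5.31% of all tested probes. At least 2-fold lower were 39 (18.9%, against 5.56%). The falls were brighter, with a median WT level in Hydration of 8.83 against 7.13 over all tested probes. The shares are not matched for brightness, and signals near background limit what dim probes can show. In dried WT 84 of 201 (41.8%, against 5.65%) stood at least 2-fold above Hydration and 27 below (13.4%, against 6.3%), and in rehydrated WT 72 of 211 (34.1%, against 7.49%) stood above and 37 below (17.5%, against 9.08%). Of the 196 measured throughout, 73 (37.2%) were at least 2-fold above on both ABA and drying, against 3.84% of all tested probes. The share above on ABA was 41.3% in replicate 1 and 42.7% in replicate 2 taken singly, and 49% against 15.7% of all tested probes with processed signals. Of the 387 rises with all spots measured, 7.75% stood at least 2-fold above Hydration in WT on ABA and 12.4% below. In dried WT 6.82% of the rises stood above and 14.7% below, whereas in rehydrated WT 21.7% stood above, over the 7.49% of all tested probes, and 8.7% below.

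In the atg5 line itself the falls climbed further, from a lower start. Its median change from Hydration to ABA for the falls was 1.74 on the log2 scale, against 0.42 in WT and -0.03 over all probes in atg5. Their median level on ABA was then 9.71 in atg5 and 9.75 in WT, whereas in Hydration it was 7.37 and 8.83. At least 2-fold above Hydration were 61.7% on ABA and 70.1% in Dehydration in atg5 (6.23% and 7.12% of all tested probes), and 63.5% in Rehydration (7%). Of the rises, 24.5% stood at least 2-fold below Hydration in atg5 on ABA (5.9% of all tested probes), 29.4% in Dehydration (6.88%) and 39.1% in Rehydration (9.51%). These changes were measured against the same Hydration channels that chose the rises and falls. For the falls, a low atg5 Hydration value enters the atg5 changes as a rise, and a high WT Hydration value enters the WT changes as a fall. The changes compare levels across arrays after between-array normalisation, and are given by size with no test. Neither set was matched for brightness with all tested probes.

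**Figure D5:**
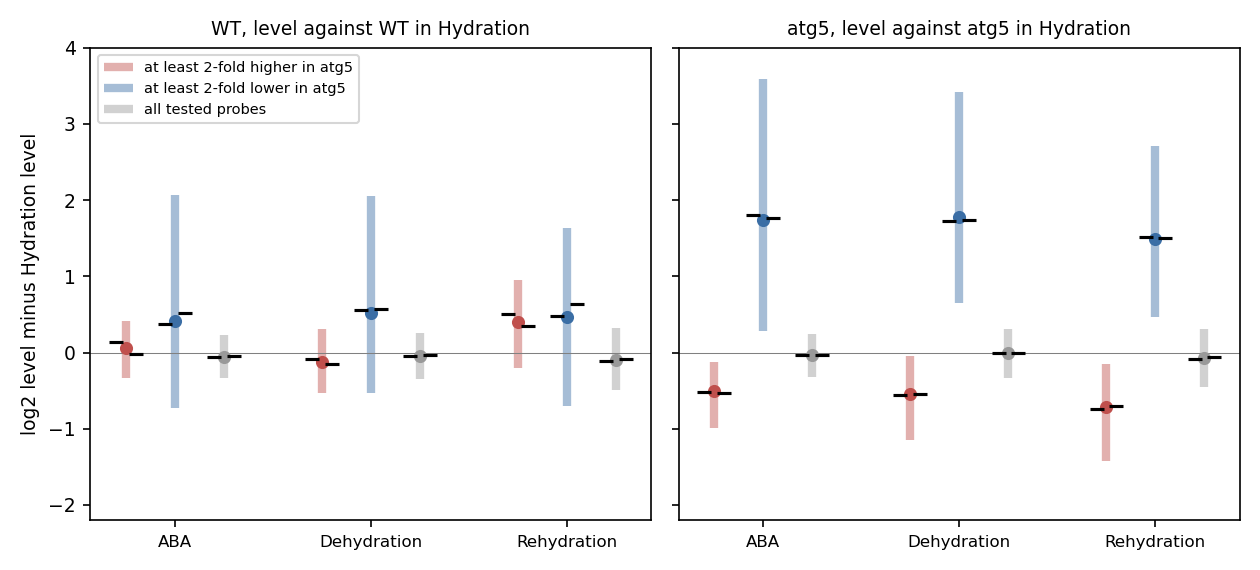
Level in a treatment minus the level of the same genotype in Hydration (log2, y axis) for WT (left) and atg5 (right), by treatment (x axis), for the probes at least 2-fold higher or lower in atg5 in Hydration and for all tested probes. Points are medians over probes, bars the middle 50% of the probes, and short lines the medians of each replicate. The falls lie at 0.42 on ABA in WT and at 1.74 in atg5, and the medians of all tested probes lie near 0.

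Probes of the same locus mostly moved together. At least 2 called probes were found in 836 loci, with all of them higher in 388, all lower in 439 and opposite directions in 9. Of the 123 loci with several tested probes and a 2-fold call, 110 had every tested probe called the same way. Probes of a locus share transcript sequence and are not independent measurements. One of the 9 exceptions, picked after its values were seen, was Pp1s309_69. Its model Pp1s309_69V6.2 was lower in atg5 (log2 difference -1.27 ± 0.133, adjusted p = 6.93e-05) while Pp1s309_69V6.4 was higher (0.83 ± 0.096, adjusted p = 0.000134).

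Brighter probes passed the test more often. In groups of 20% of the tested probes from dimmest to brightest, the share called was 13.1%, 22.4%, 34.2%, 41.8% and 47.7%. The median gap between the 2 arrays shrank from 0.18 to 0.13 over the same range. Rises of at least 2-fold numbered 3 in the dimmest group and 201 in the brightest, and falls of that size 1 and 97. A missing call in a dim transcript does not show equal levels.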

How the data were processed

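Cy3- and Cy5-labelled RNA of WT and atg5 was measured on 8 arrays, 2 per treatment. The deposited scanner output comes from Agilent Feature Extraction, version 9.5.3.1 per the file headers and 9.1 per the submitters' processing notes, and holds spot intensities on a linear scale with local background medians. The deposited log10 ratios of the same files were exactly 0 at 32.2% and 29.5% of Hydration gene spots and were not used. The authors' deposited table of intensities (16 columns) equalled the files' processed signals. Labelling used 200 ng of RNA per the sample labels and 400 ng per the series' text. Whether colonies had been on ABA before drying is not stated in the labels.

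Median pixel signals were corrected by normexp (offset 50), normalised within arrays by loess (control spots had weight 0), and turned to log2 atg5 over WT. Spots marked as outliers (115 and 155 on the Hydration arrays) were left out, and spots of a probe averaged. Probes well above background on both arrays of any genotype and treatment were kept (19741). After leaving out 77 with no used spot in some treatment, 19664 were tested, 148 of them on 1 Hydration array. The ratios were fitted in R 4.3.3 with limma 3.58.1 (lmFit, eBayes) over all 8 arrays, 1 coefficient per treatment, and Hydration was also contrasted with the mean of the others. Channel levels came from Aquantile normalisation. The fit was also run on simulated data drawn with independent errors for each array. In the real data same-numbered arrays deviated together, so that run cannot show how well the p-values hold there. Fitted values of 1-array treatments rest on that array.

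The arrays are called biological replicates in the labels, which do not say whether colonies were grown separately, so p-values may measure technical spread. Replicate number, slide and dye orientation coincide. Same-numbered arrays deviated together (correlations of 0.271 to 0.535 in 6 pairs of treatments), so the numbers pair the arrays, and counts with that block are given where they change a result. Intensities below background and the number of arrays limit the precision.

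Members and lists were chosen with earlier results of these data known. Probes were named by rule, with the brightest called probe per locus, the same sign on both arrays and both spots used. At most 2 rises and 2 falls each were taken by size in Hydration, by size in the contrast, by bound in probes dim in 1 genotype, and by brightness among 2-fold differences. Planned gene lists (autophagy, proteasome, ribosome, photosystem and others) were not analysed here, because identifiers are not paired with names (reference assembly ASM5946719v1), and no probe sequence was used here.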

Additional observations from a re-analysis of the deposited data

Results flagged for a closer look

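A difference of the atg5 effect between Hydration and the mean of the other 3 treatments passed limma's test at 3809 probes, and 13 of the named probes were among them. Above 0, the log2 difference of the effects was 1.52 for Pp1s33_372V6.1, 1.565 for Pp1s80_148V6.1, 2.671 for Pp1s141_4V6.1, 2.449 for Pp1s189_69V6.1, 1.631 for Pp1s71_107V6.1 and 0.8402 for Pp1s172_73V6.1. Below 0, it was -2.282 for Pp1s997_1V6.1, -2.302 for Pp1s73_255V6.1, -2.722 for Pp1s347_19V6.1, -2.677 for Pp1s57_24V6.1, -1.865 for Pp1s178_136V6.1, -1.415 for Pp1s122_138V6.1 and -1.392 for Pp1s350_5V6.1. These 13 were named for their values in Hydration or in this contrast, which favours a difference. For Pp1s33_372V6.1, Pp1s80_148V6.1 and Pp1s172_73V6.1 the difference came mainly from Rehydration, whose arrays had the lowest share of spots well above background. Hydration minus Rehydration was 3.82, 3.29 and 1.37 in that order, each called. Hydration minus ABA was 0.15, 0.68 and 0.64, and Hydration minus Dehydration 0.58, 0.73 and 0.51, none of them called.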

How the results depend on the processing

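The count of 6261 probes in Hydration was 8630 with the replicate block (4012 higher, 4618 lower), 2266 with Agilent's processed signals (994 and 1272), 2846 to 3764 without 1 Hydration replicate, 622 with a 2-fold minimum, which has 64.5% higher against 48.6%, and 3754 at an adjusted p under 0.01. With median centring in place of loess limma called 0 (2723 at an unadjusted p under 0.05). The median ratio was -0.4875 under it, against -0.031 in the main fit. Spike-in scaling, chosen after seeing the data and taken as free of error, called 19526, of which 80 were higher. Its median ratio was -1.576. The 2-fold rises and falls numbered 26 and 18257 under it. The contrast's count of 3809 was 6267 with the replicate block, 780 with processed signals (35.6% above 0 against 45.4%), 0 with median centring (855 before adjustment), 2502 with no filter on dim probes, 1391 to 2067 without 1 Hydration replicate, and 19585 with spike-in scaling (13 above 0). The cause was not tested. Under spike-in scaling 2828 probes called in Hydration were called in the opposite direction, and 0 were under any other alternative. Median centring made no calls, and 4456 of the 6261 probes kept their sign under it, the rest having turned. Of 212 values of 19 named results under the alternatives, 189 kept direction and call, 20 lost the call (18 of them with median centring) and 3 reversed. The reversed values were -0.095 and -0.48 for Pp1s62_136V6.1 with median centring and spike-in scaling, and -0.12 for Pp1s172_73V6.1 with spike-in scaling. The replicate block changed no call of a named probe. With processed signals the share of the falls at least 2-fold above Hydration in WT was 49% on ABA and 47.3% in Dehydration. Over all tested probes it was 15.7% and 16.7% with these signals, against 5.31% and 5.65% in the main setting. Without 1 replicate the share of the falls was 41.3 to 42.7% on ABA and 41.3 to 43.3% in Dehydration. These settings were chosen after seeing the data. Signals near background limit what dim probes can show.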

Other observations

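A pair of large falls lies at consecutive locus numbers of scaffold 207, and was picked after its values were seen. The first of them had a used spot on 1 Hydration array only. In Hydration Pp1s207_89V6.1 was lower in atg5 by 7.06-fold (log2 difference -2.82 ± 0.158, limma adjusted p = 2.85e-06) and Pp1s207_90V6.1 by 5.49-fold (-2.46 ± 0.119, adjusted p = 5.26e-07). Whether both probes read separate transcripts was not tested.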
